A study of Mus musculus with 2 samples.

Results

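Major histocompatibility complex (MHC) genes and the machinery that loads their products with peptide were followed in fibroblastic reticular cells (FRCs) expanded in culture, the fibroblasts that form the scaffold of lymph nodes in the mouse. Members were selected by name from the platform's probe annotation: every probe set naming an H2 gene, including those that name several, and every probe set of B2m, Tap1, Tap2, Tapbp, Tapbpl, Erap1, Ciita, Nlrc5, Cd74, Calr, Canx and Pdia3. This gave 67 probe sets of 22629 with a gene in the annotation and 24679 on the array. They name 55 genes, 42 of them H2 genes. Of the 67, 59 name 1 gene and 8 name several H2 genes, and 19 of the 59 are probe sets of Nlrc5 alone. Another 2 probe sets that pair Tapbp with the ribosomal protein gene Rps3a1 were left out. Probe sets naming several genes were kept only where they name an H2 gene.

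The series has 1 group with 2 arrays, here replicate 1 and replicate 2. The labels give strain C57BL6/J, untreated mice 4 to 6 weeks old, and stroma of whole lymph nodes cultured for 7 to 10 days in αMEM medium with 10% fetal calf serum. The source is called purified FRCs, no purification step is described, and nothing says whether the replicates were separate animals or cultures, so their spread may be technical. No second condition exists, so no significance test was possible and differences between the arrays have no replicate check. Values are log2 intensities after RMA (robust multi-array average), a method that corrects background, equalises the arrays and summarises each probe set.

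Signal was read against 2 limits. The first was the 95th percentile of 1030 olfactory receptor probe sets (7.16 on replicate 1 and 7.18 on replicate 2). The stricter one was the 95th percentile of 42 probe sets of genes that belong to other organs, among them liver, retina and testis (8.05 and 8.16). Of these 42 probe sets, 18 (42.9%) passed the first limit themselves, so a value between the limits is weak evidence of a transcript. Probe sets bind with different strength, and levels of different genes were therefore not ranked.

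Nearly all nucleated cells are known to display peptides from their own proteins on MHC class I molecules. These consist of a heavy chain, such as H2-K or H2-D in mice, and the light chain beta-2 microglobulin. Peptides reach the endoplasmic reticulum through the TAP transporter and are fitted to class I with the help of tapasin and calreticulin. MHC class II molecules present peptides from endosomes, are made mainly by B cells, dendritic cells and macrophages, and can be induced in stromal cells by interferon gamma. Nlrc5 and Ciita are the transactivators of class I and class II genes, respectively. In lymph nodes, FRCs have been studied as cells that can present antigen to T cells.

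Class I loading genes passed the stricter limit on both arrays almost throughout, while of the class II genes only H2-DMa did. Of the 67 members, 42 (62.7%) passed the olfactory receptor limit on both arrays, against 66.8% of all probe sets with a gene. The tissue-restricted limit was passed by 23 members (34.3%), against 50.4% of all. Both class Ia probe sets and 8 of 9 probe sets of the light chain and loading genes passed the stricter limit on both arrays. So did 6 of 25 class Ib probe sets, 1 of 5 for the class II chaperones and 0 of 5 for classical class II. With 19 Nlrc5 probe sets counted as 1 member by their mean, 30 members passed the first limit and 18 the stricter one. In bulk RNA, fewer expressing cells and less RNA per cell cannot be told apart.

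**Figure D1:**
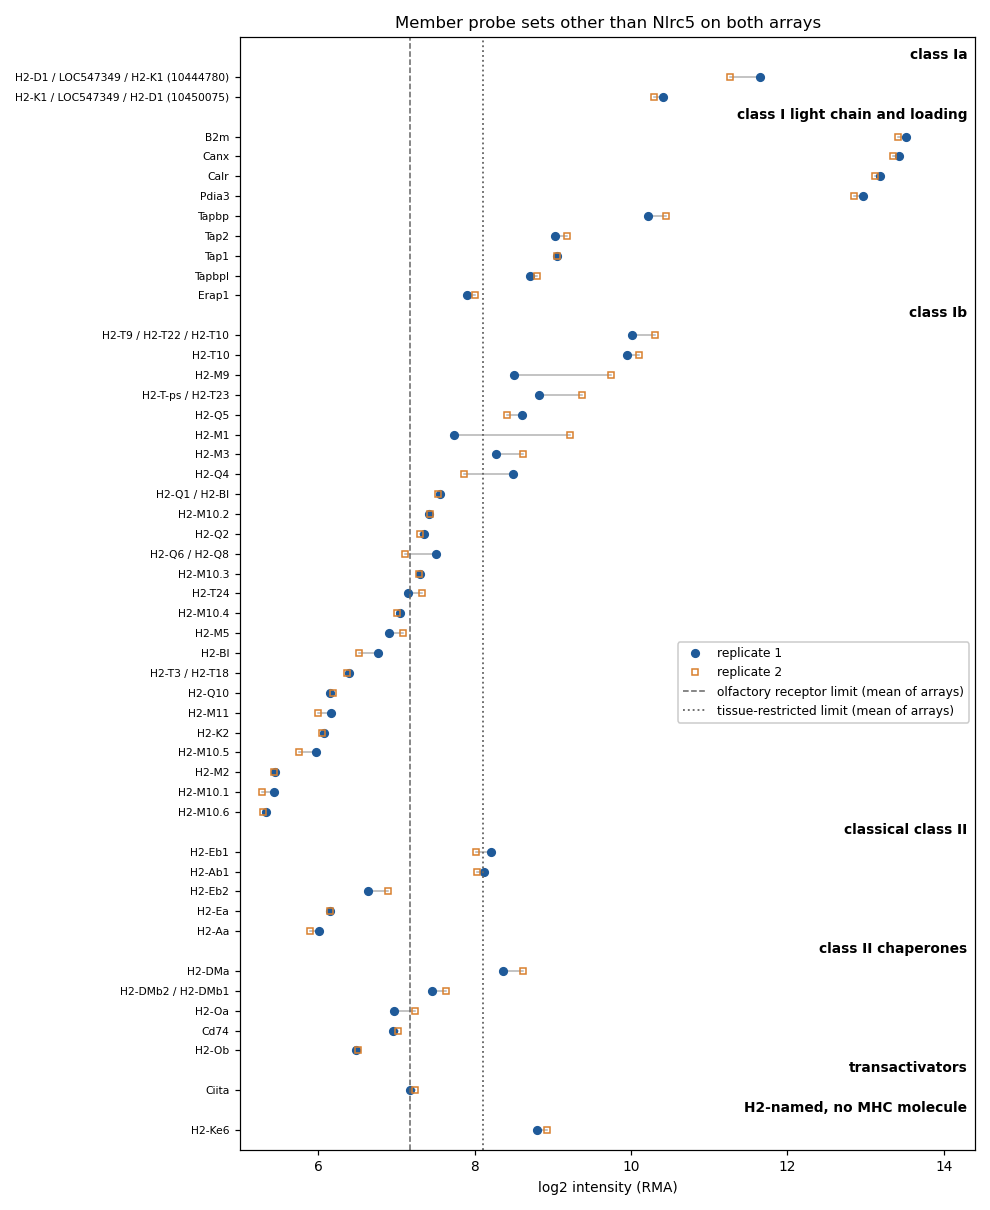
Log2 intensity of the 48 member probe sets other than Nlrc5 on replicate 1 (filled circles) and replicate 2 (open squares), grouped by role, with the mean of each background limit as a vertical line. Light chain and loading genes lie right of the olfactory receptor limit, H2-Aa, H2-Ea, H2-Ob and Cd74 lie left of it, and H2-M1 and H2-M9 show the widest gaps between the arrays.

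The class Ia heavy chains, which present peptides to CD8 T cells, could be measured only together. H2-K1 and H2-D1 are named by both class Ia probe sets, along with LOC547349. Probe set 10444780 gave 11.65 on replicate 1 and 11.27 on replicate 2 (mean 11.46 ± 0.27, SD, n = 2). Probe set 10450075 gave 10.40 and 10.29 (10.35 ± 0.08). Both were above both limits on both arrays, and replicate 2 was the lower array for each. Signal of the pseudogene H2-K2, measured by a probe set of its own, was 6.08 and 6.05, below both limits.

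The upstream sequences of this pair are shown because they carry the elements known to control class I genes and because both genes are read by the same probe sets. Each run holds the 250 bases before a RefSeq transcript start in assembly GRCm38.p6, read 5′ to 3′ on the gene's strand. H2-K1 and H2-M9 have a second start in the table, whose windows are not shown. Capitals mark matches, on either strand, to the kappa B pattern GGGNNTTCC, bound by NF-kappa B, or to CCAAT, the Y box of MHC promoters. The interferon response core GAAANNGAA and the cyclic AMP element TGACGTCA were searched too, and no match of one pattern overlapped a match of another in the sequences shown.

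H2-K1, chr17:34000334-34000583, minus strand: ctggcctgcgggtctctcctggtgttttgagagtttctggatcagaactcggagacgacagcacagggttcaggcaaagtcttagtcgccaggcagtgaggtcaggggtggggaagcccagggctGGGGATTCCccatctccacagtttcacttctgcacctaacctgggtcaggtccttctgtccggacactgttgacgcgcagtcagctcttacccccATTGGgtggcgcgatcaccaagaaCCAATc

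H2-D1, chr17:35262844-35263093, plus strand: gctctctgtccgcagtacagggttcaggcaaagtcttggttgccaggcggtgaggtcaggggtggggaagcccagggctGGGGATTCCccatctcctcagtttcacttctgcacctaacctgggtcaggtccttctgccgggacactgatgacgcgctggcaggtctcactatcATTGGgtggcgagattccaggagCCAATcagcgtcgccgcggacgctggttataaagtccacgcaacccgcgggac

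Of 203 aligned positions, 180 (88.7%) were identical between these windows. The kappa B match had the same letters in both, GGGGATTCC, and began 125 bases before the H2-K1 start and 171 bases before the H2-D1 start used here. Among the 27025 genes with a promoter in the RefSeq table, 5.61% held the kappa B pattern in a window of this length and 37.5% held CCAAT. Promoters were found for 38 of the 55 member genes. Of these 38 genes, 7 (18.4%) held the kappa B pattern, 34 (89.5%) CCAAT, 4 (10.5%, against 8.18% of all genes) the interferon response core and 1 (2.63%, against 1.77%) the cyclic AMP element. Members with like windows, such as H2-K1 and H2-D1, were counted separately, so these shares do not measure enrichment. Such matches describe letters, and no binding was measured.

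The light chain and every loading gene in the list passed the first limit on both arrays. B2m, the light chain that class I needs to reach the surface, was at 13.52 and 13.41 (13.47 ± 0.08). The TAP transporter subunits Tap1 (9.05 and 9.05, SD 0.0040) and Tap2 (9.03 and 9.18) were above both limits. Tapbp, which encodes tapasin and bridges class I to TAP, was at 10.22 and 10.45, and Tapbpl, the tapasin-like peptide editor, at 8.70 and 8.79. The general chaperones of the endoplasmic reticulum that also hold folding class I were calreticulin, Calr (13.18 and 13.12), calnexin, Canx (13.43 and 13.36), and the thiol oxidoreductase Pdia3 (12.97 and 12.86). Erap1, the aminopeptidase that trims peptides in the endoplasmic reticulum, was the exception to the stricter limit, with 7.90 and 8.0. All 9 genes differed by less than 1.5-fold between the arrays, from -0.12 for Pdia3 to 0.23 for Tapbp on the log2 scale.

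The B2m window is shown beside the heavy chain windows because its capitals include the interferon response core, which neither heavy chain window holds under the exact pattern used. Inexact versions of the core were not searched for, so whether the heavy chain windows hold one was not tested.

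B2m, chr2:122147437-122147686, plus strand: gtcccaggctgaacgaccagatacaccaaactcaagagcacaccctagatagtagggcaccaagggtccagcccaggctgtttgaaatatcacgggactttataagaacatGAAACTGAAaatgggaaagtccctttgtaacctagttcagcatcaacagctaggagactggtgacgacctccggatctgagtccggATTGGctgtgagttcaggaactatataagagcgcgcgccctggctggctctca

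The core in B2m, GAAACTGAA, began 139 bases before the start, and the capitals nearer the start, ATTGG, are CCAAT on the other strand. Among the 7 light chain and loading genes with a promoter in the table, 2 held the interferon response core, B2m and Erap1, and 0 held the kappa B pattern. CCAAT was present in 6 of the 7, Erap1 being the one without it.

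Class Ib genes encode class I-like chains with limited variation and specialised roles. Of 25 probe sets in this group, which also holds the pseudogenes H2-K2 and H2-Bl, 12 were above the first limit on each array, 2 on a single array and 11 were below it. The shared probe set of H2-T9, H2-T22 (a ligand of gamma delta T cells) and H2-T10 was at 10.02 and 10.30. H2-T10, which the RefSeq table lists as a transcribed pseudogene, was at 9.95 and 10.10 on a probe set of its own. H2-T23, which encodes Qa-1, a ligand of inhibitory receptors of NK cells, shares its probe set with H2-T-ps, and this was at 8.82 and 9.37. H2-M3, which presents formylated bacterial peptides, was at 8.28 and 8.62. These 4 probe sets were above both limits and higher on replicate 2. H2-T24 (7.15 and 7.33) passed the first limit on replicate 2 only. The probe set of H2-T3, the thymus leukaemia antigen of gut epithelium, and H2-T18 (6.39 and 6.36) and that of H2-Bl (6.76 and 6.52) were below both limits.

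The H2-Q genes lie in a cluster beside H2-D1 and include the Qa-2 antigens. The pseudogene H2-Q5 was at 8.60 and 8.41 and passed both limits on both arrays. H2-Q4 was at 8.50 on replicate 1 and 7.87 on replicate 2, above the stricter limit on replicate 1 only. H2-Q2 (7.35 and 7.31) and the probe set of H2-Q1 and H2-Bl (7.55 and 7.53) lay between the limits. The probe set naming both H2-Q6 and H2-Q8 was at 7.50 and 7.11 and passed the first limit on replicate 1 only. H2-Q10, known as a soluble chain secreted by liver, was at 6.15 and 6.19, below both limits. All 5 H2-Q probe sets with a mean above the first limit were lower on replicate 2 (-0.63 to -0.02). Among all probe sets above the mean limit, 49.7% were lower there. The 4 H2-T probe sets above the mean limit were higher on replicate 2 (0.15 to 0.55), and H2-T10 is named by more than 1 of them. Some of these probe sets name several genes, and whether they read one another's transcripts was not tested.

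The H2-M genes include a set known from sensory neurons of the vomeronasal organ: H2-M1, H2-M9, H2-M11 and 6 H2-M10 genes. Of the H2-M10 probe sets, H2-M10.2 (7.41 and 7.42) and H2-M10.3 (7.30 and 7.29) passed the first limit and 0 of 6 passed the stricter one. The other 4, from H2-M10.6 (5.33 and 5.30) to H2-M10.4 (7.04 and 7.01), were below both limits, as was H2-M11 (6.16 and 6.0). H2-M9 was at 8.50 and 9.74 and passed both limits on both arrays. H2-M1 was at 7.74 and 9.22 and passed the stricter limit on replicate 2 only. H2-M2 (5.45 and 5.43) and H2-M5 (6.91 and 7.08) were below both limits on both arrays.

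H2-M1 and H2-M9 were the members that differed most between the arrays. The difference of replicate 2 minus replicate 1 was 1.48 for H2-M1 (2.78-fold) and 1.24 for H2-M9 (2.36-fold). Ranked from the most positive difference, they stood 58th and 89th of the 15430 probe sets with a mean above the mean limit. With replicate 1 set to the tissue-restricted limit, H2-M1 was at least 2.24-fold higher on replicate 2. In the RefSeq gene order they are next to each other among genes with a probe set, between H2-M11 and H2-M10.5, which were below background on both arrays. Their upstream windows are shown because the pair moved together.

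H2-M1, chr17:36672198-36672447, minus strand: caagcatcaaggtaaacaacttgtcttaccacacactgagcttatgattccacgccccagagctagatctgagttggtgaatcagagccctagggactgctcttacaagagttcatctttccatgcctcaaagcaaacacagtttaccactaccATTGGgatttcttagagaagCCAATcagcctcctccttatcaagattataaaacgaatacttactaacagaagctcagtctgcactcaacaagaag

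H2-M9, chr17:36642645-36642894, minus strand: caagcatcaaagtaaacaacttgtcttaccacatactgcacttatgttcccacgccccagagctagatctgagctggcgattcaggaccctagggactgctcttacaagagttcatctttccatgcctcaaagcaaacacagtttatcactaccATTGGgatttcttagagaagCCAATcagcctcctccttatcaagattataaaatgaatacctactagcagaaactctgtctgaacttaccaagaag

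These windows were identical at 230 of 250 aligned positions (92.0%). The 26 other pairs of windows from 8 members (H2-K1, H2-D1, B2m, Tap1, H2-Aa, H2-Eb1, H2-M1 and H2-M9), apart from H2-K1 with H2-D1, had 57.0% to 69.2%. No other H2-M gene was among the 8, so whether this likeness is particular to H2-M1 and H2-M9 was not tested. Capitals again mark CCAAT on both strands, 96 and 76 bases before the H2-M1 start and before the H2-M9 start used here. Before the other H2-M9 start they lie at 77 and 57 bases, so the equal places hold for the start shown. Whether probes of one gene of the pair also bind transcripts of the other was not tested. The annotation names 1 gene for each of the probe sets.

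Classical class II genes, whose alpha and beta chains pair to present peptides to CD4 T cells, gave at most weak signal. The beta chain genes H2-Ab1 (8.12 and 8.03) and H2-Eb1 (8.21 and 8.01) cleared the first limit on each array and the stricter one on replicate 1 only. H2-Aa, the alpha chain that pairs with H2-Ab1, was at 6.01 and 5.89, below both limits on both arrays. H2-Ea was at 6.15 and 6.15 (6.15 ± 0.0004), and H2-Eb2 at 6.64 and 6.89, both below the limits. C57BL/6 mice carry the b haplotype, in which H2-Ea is defective. Neither alpha chain gene passed a limit on either array.

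The upstream windows of H2-Aa and H2-Eb1 are shown as the class II counterpart of the class I windows, with the same patterns in capitals.

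H2-Aa, chr17:34287824-34288073, minus strand: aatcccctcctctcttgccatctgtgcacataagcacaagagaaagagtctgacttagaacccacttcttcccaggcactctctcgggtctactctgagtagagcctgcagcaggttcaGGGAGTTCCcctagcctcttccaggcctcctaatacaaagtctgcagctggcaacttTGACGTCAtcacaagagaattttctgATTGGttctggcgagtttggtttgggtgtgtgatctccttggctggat

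H2-Eb1, chr17:34305617-34305866, plus strand: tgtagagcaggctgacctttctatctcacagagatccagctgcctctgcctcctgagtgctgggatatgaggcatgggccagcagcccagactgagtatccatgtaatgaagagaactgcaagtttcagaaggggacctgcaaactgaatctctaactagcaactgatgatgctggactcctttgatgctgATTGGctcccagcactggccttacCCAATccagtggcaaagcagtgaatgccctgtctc

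Only the H2-Aa window among the 38 members' promoters held the full cyclic AMP element, TGACGTCA, 74 bases before the start, with ATTGG at 48 bases. It also held a kappa B match, GGGAGTTCC, at 131 bases. H2-Eb1 held CCAAT on both strands, at 59 and 35 bases, and 0 matches to the other 3 patterns. All 3 classical class II genes with a promoter in the table held CCAAT, as did 2 of 2 class Ia genes and 17 of 20 class Ib genes.

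The class II chaperones were weak apart from H2-DMa. H2-DMa, a chain of the editor that exchanges peptides on class II, was at 8.36 and 8.62 and passed both limits on both arrays. Its partner chains H2-DMb1 and H2-DMb2 share a probe set, which was at 7.46 and 7.63 and between the limits. H2-Oa (6.97 and 7.23) passed the first limit on replicate 2 only. H2-Ob (6.48 and 6.50), its partner in the inhibitor of H2-DM, was below it. Cd74, which encodes the invariant chain that fills the class II groove until the endosome, was at 6.96 and 7.02, below the first limit on both arrays.

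The class II transactivator Ciita was at 7.18 and 7.24, against a first limit of 7.16 and 7.18, and was below the stricter limit. H2-Ke6, which carries an H2 name for its place in the region and encodes no MHC molecule but a steroid dehydrogenase, was at 8.80 and 8.92.

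Nlrc5 had 19 probe sets, and their levels spread over the whole range from background to clear signal. Of the 19, 13 were above the first limit on each array, 1 on replicate 1 only and 5 were below it on each. The stricter limit was passed by 5 on both arrays. The highest, 10574100, was at 10.43 and 10.32 and the lowest, 10574145, at 5.50 and 5.01. The median of the means was 7.68. A single summary of Nlrc5 would therefore depend on which probe set was used. All 13 probe sets with a mean above the first limit were lower on replicate 2, by 0.02 to 0.35 on the log2 scale (median -0.13), and of all 19, 18 were lower. Among all probe sets above the mean limit, 49.7% were lower on replicate 2. The 19 probe sets read 1 gene on the same 2 arrays, so they count as 1 observation of its level, and 0 of the 13 reached 1.5-fold.

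**Figure D2:**
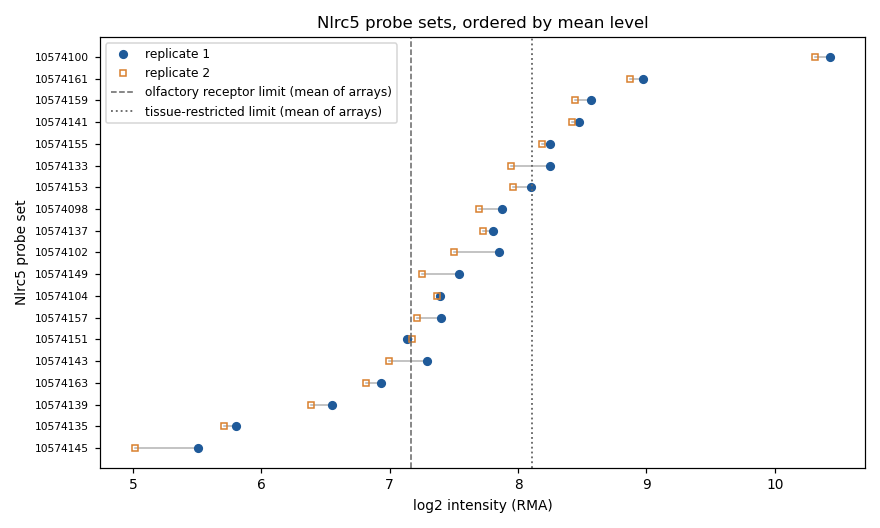
Log2 intensity of the 19 Nlrc5 probe sets on replicate 1 (filled circles) and replicate 2 (open squares), ordered by mean level, with the mean of each background limit as a vertical line. Values run from 5.01 to 10.43, and 18 of 19 probe sets were lower on replicate 2.

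Between the arrays, the members differed little. Of 44 members with a mean above the mean first limit, 16 were higher and 28 lower on replicate 2, and the median difference was -0.05, against 0.0011 over all 15430 such probe sets. Without Nlrc5 the counts were 16 higher and 15 lower, with a median of 0.01. A 1.5-fold difference was seen in 3 members (6.82%), against 4.63% of all probe sets. H2-M1 and H2-M9 were higher on replicate 2, a direction seen at this size in 2.7% of all. H2-Q4 was lower there (-0.63, 1.55-fold), as were 1.93% of all, and with replicate 2 set to the tissue-restricted limit its fold was at least 1.26. The probe set of H2-T-ps and H2-T23 followed with 0.55 (1.47-fold).

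**Figure D3:**
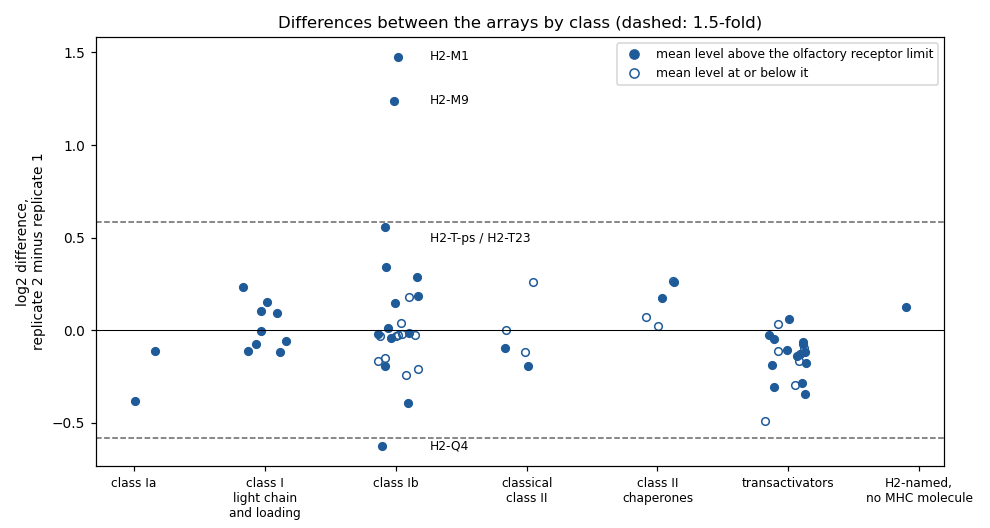
Log2 difference, replicate 2 minus replicate 1, of each of the 67 member probe sets by role, with filled points for members whose mean lies above the olfactory receptor limit and dashed lines at 1.5-fold. H2-M1 (1.48), H2-M9 (1.24) and H2-Q4 (-0.63) lie outside the dashed lines, and the other filled points lie between them.

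Other genes of the pathway were read from lists of genes with a probe set of their own. For class I peptide supply and folding, 24 of 25 measured genes passed both limits. The exception was Psmb8, a catalytic subunit of the immunoproteasome, at 7.06 and 6.87. The other immunoproteasome subunits Psmb9 (8.47 and 8.58) and Psmb10 (9.32 and 9.41) and the activator subunits Psme1 (10.23 and 10.23) and Psme2 (10.88 and 11.13) passed both limits. Of 24 genes here with a mean above the limit, 0 differed 1.5-fold, and the median difference was -0.0075.

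For class II factors and endosomal proteins, 20 of 22 measured genes passed both limits, as did 9912 of all 19751 genes with a probe set of their own. Rfx5 (8.70 and 8.78), Rfxank (9.32 and 9.26) and Rfxap (8.57 and 8.55) form the complex that binds the X box of MHC promoters. Ifi30, the thiol reductase of the endosome, was at 11.98 and 12.23. Cathepsin S, Ctss, which trims the invariant chain in antigen-presenting cells, was at 6.89 and 6.89, and Marchf1, which marks class II for turnover, at 6.87 and 6.71, both below the first limit. Of the 20 genes, 2 were 1.5-fold higher on replicate 2, the cathepsin Ctsf (8.65 and 9.38) and the tetraspanin Cd9 (9.63 and 10.32).

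Of 29 measured genes of interferon and NF-kappa B signalling, 27 passed the first limit and 25 the stricter one. Of all 19751 genes with a probe set of their own, 13274 and 9912 did. The interferon gamma receptor chains Ifngr1 (11.14 and 11.40) and Ifngr2 (12.96 and 13.07) and the factors Irf1 (8.15 and 8.19), Irf2 (9.95 and 9.94) and Rela (11.52 and 11.45) passed both. Ifng itself was at 7.22 and 7.27, between the limits. Ifnb1 (6.41 and 6.19) and Prdm1 (6.76 and 6.72) were below the first limit, and no gene of this list differed 1.5-fold. Of 19 interferon-stimulated genes, 12 passed the first limit and 10 the stricter one, shares near those of all genes with a probe set of their own. Ifit3 (7.13 and 8.47) and Ifit1 (6.75 and 7.63) were 1.5-fold higher on replicate 2, and replicate 1 was below the first limit for both.

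Among MHC I-like molecules and ligands of the activating NK receptor NKG2D, 6 of 10 measured genes passed the first limit and 3 the stricter one. Of all 19751 genes with a probe set of their own, 13274 and 9912 did. The first share of this list of 10 was near that of all genes, and the second was lower. Mr1, which presents vitamin B metabolites, was at 11.08 and 11.48. Raet1d, an NKG2D ligand, was at 9.79 and 10.81, 2.04-fold higher on replicate 2 and the one gene here past 1.5-fold. Cd1d1, which presents lipids to NKT cells, was at 7.91 and 7.82, between the limits. Azgp1 (6.50 and 6.62), H60b (6.24 and 6.53) and Mill1 (6.97 and 7.02) were below the first limit, and Mill2 (7.03 and 7.32) passed it on replicate 2 only.

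**Figure D4:**
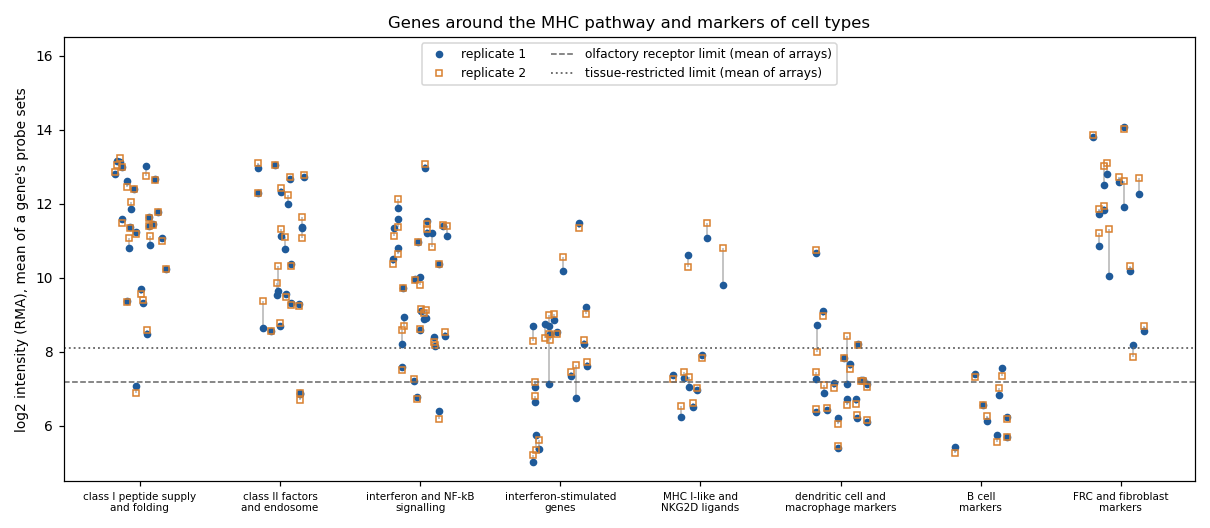
Log2 intensity on replicate 1 (filled circles) and replicate 2 (open squares) of the measured genes of 8 lists around the pathway, each gene joined by a line, with the mean of each background limit as a horizontal line. All but Psmb8 of the class I supply list lie above both limits, and the B cell markers lie below the stricter one.

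Markers of other cells bear on the weak class II values, and the labelled cell type was checked with them. Of all 19751 genes with a probe set of their own, 13274 passed the first limit and 9912 the stricter one. Of the 42 probe sets of genes that belong to other organs, 18 (42.9%) passed the first limit and 3 (7.14%) the stricter one. All 14 FRC and fibroblast markers passed the first limit and 13 the stricter one, with Pdpn at 12.60 and 12.73 and Pdgfrb at 12.81 and 13.11. The one below the stricter limit on an array was Ccl19, the T zone chemokine made by FRCs, at 8.17 and 7.85. Of 9 B cell markers, 2 (Cd79b and Pax5) passed the first limit and 0 the stricter one, and their summed linear intensity was 856 and 833, with Ms4a1 at 5.42 and 5.26. Of 21 dendritic cell and macrophage markers, 9 passed the first limit and 3 the stricter one, with a summed intensity of 4954 and 5020. These 3 were Cd53, a leukocyte tetraspanin (10.67 and 10.75), Cd68, a lysosomal protein of macrophages (9.09 and 8.96), and Zbtb46, a factor of dendritic cells (8.21 and 8.18). Ptprc (6.41 and 6.47) and Itgax (6.37 and 6.46) were below the first limit, and Flt3 (7.24 and 7.22) and Csf1r (7.66 and 7.54) lay between the limits. For T cells 3 of 8 markers (Cd3e, Cd8a and Zap70) passed the first limit and 0 the stricter one, with Cd3e at 7.58 and 7.60 and a summed intensity of 980 and 1011. For endothelium 6 of 12 passed the first and 1 (Egfl7) the stricter, with Pecam1 at 7.22 and 7.13, Cdh5 at 8.05 and 7.53 and a summed intensity of 2077 and 2103. The summed intensities cover lists of different length and include background, so they cannot be compared between cell types. No marker list was at 0, since arrays give signal for every probe set. The part of such cells in the class II values was not tested.

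Other genes moved between the arrays beside H2-M1, H2-M9 and H2-Q4. All 14 measured cell cycle genes were lower on replicate 2, with a median difference of -0.74. Of these, 9 reached 1.5-fold: Mki67 (10.52 and 9.45), Bub1, Plk1, Ccna2, Top2a, Aurka, Aurkb, Cdk1 and Tyms. Of 13546 genes with their own probe set and a mean above the mean first limit, 257 were 1.5-fold lower there and 389 higher. Col3a1 (10.05 and 11.30) and Col1a2 (11.92 and 12.60) were 1.5-fold higher there. Among the myeloid markers Lyz2 was higher (7.12 and 8.43) and Mertk lower (8.73 and 7.98) on replicate 2. Of the endothelial markers, Emcn (7.64 and 8.40) and Tek (6.93 and 7.68) were higher and Flt4 (8.41 and 7.79) lower there by 1.5-fold. Replicate 1 was below the first limit for Lyz2 and Tek. The part of all these genes in the differences of the members was not tested.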

How the data were processed

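Lymph node FRC cultures were measured on 2 arrays. The deposited values are intensities on a linear scale, made by the authors with RMA, named without a version in the submitters' processing notes. Which arrays were normalised together and the genome build are not given in the sources used here. RMA compresses differences at low signal and hides a change in total RNA per cell. Log2 values were computed here from the deposited intensities with Python 3.11.15, pandas 2.3.3 and NumPy 2.4.6. Arrays have no read depth, and their number, 2, limits the precision.

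Probe sets took their genes from the platform's annotation. Of the 55 member genes, 54 were in the RefSeq gene table of GRCm38.p6, with symbols unchanged. Pathway lists used probe sets with 1 gene, averaged per gene. Differences were read over probe sets whose mean lay above the mean first limit (7.17), at 1.5-fold. Where an array lay at or below a limit, a fold called "at least" set it to that limit. Promoter windows came from RefSeq and were searched for exact matches on both strands, and identity was counted over aligned bases in global alignments (Biopython 1.88).

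Members, lists and limits were chosen with earlier results of these data known. Named were the 12 listed genes, class Ia and class II members, probe sets naming several H2 genes, other members above the stricter limit or differing 1.5-fold, and each class's lowest and highest difference. The remaining members are given to account for each. Of other lists, genes differing 1.5-fold, those on the smaller side of the first limit where 5 or fewer, and a set of known genes were named. Some genes of that set are not reported here. Ccl19, Cd53, Cd68, Zbtb46, Egfl7 and Ifng were singled out after their values were seen. Counting was checked on simulated data. The alternatives were other limits, genes in place of probe sets, leaving out either array, normalising the arrays by quantiles, subtracting a loess curve (statsmodels 0.14.6, span 0.3), an offset of 50, other filters and a 2-fold difference. Protein sequences were not used here.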

Additional observations from a re-analysis of the deposited data

How the results depend on the processing

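The count of members above the olfactory receptor limit, 42, became 27 at the 99th percentile of the receptors and 24 of 41 when genes with a probe set of their own were counted, the second because fewer units are counted. Under the other 8 alternatives it ran from 30 to 56, and with 1 array left out it was 44 and 44. The count above the tissue-restricted limit, 23, ran from 18 to 28 under 7 alternatives, with 24 and 28 when an array was left out. The classical class II count above that limit, 0, became 2 at the 90th percentile or on replicate 1 alone, where H2-Ab1 and H2-Eb1 passed. Above the first limit the classical class II count was 2, and 2 at the 99th percentile too. It was 3 with the vomeronasal limit. The median difference of members ran from -0.06 to 0.0029 under 9 alternatives, and the positive value came from averaging Nlrc5 into 1 member, which was added after seeing the data, as were leaving out H2-Ke6 and including the probe sets of Rps3a1 and Tapbp. The count of members differing 1.5-fold was 3, or 2 at 2-fold and with the offset of 50, where H2-Q4 fell by 0.54. At the 99th percentile the class Ib count fell from 12 to 6 and that of the transactivators from 14 to 7. The class II chaperone count above the first limit, 2, became 4 at the 90th percentile, 1 at the 99th and 5 with the vomeronasal limit. H2-M1 and H2-M9 kept differences of at least 1.29 and 1.13 under quantile normalisation, loess removal and the offset, and Nlrc5, H2-Q and H2-T kept their directions there. No paired analysis was possible because the series has 1 group. Differences cannot be computed with an array left out. Levels near the limits cannot be told from background.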
